A study of Mus musculus with 5 samples.

Results

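The angiopoietin-Tie receptor system was followed through 5 genes in lung endothelial cell isolates: the receptors Tek (Tie2) and Tie1, the receptor phosphatase Ptprb and the ligands Angpt1 and Angpt2. The members were taken by symbol from the 49315 genes of the count table, and all 5 were present and passed the filter on low counts. The libraries labelled TET2KO (n = 2) came from mice that the labels describe as lacking TET2 in endothelium only, TET2 being an enzyme that oxidises methylated cytosines in DNA, and those labelled WT (n = 3) from wild-type mice. Both genotypes had been infused for 28 days with angiotensin II, a vasoconstrictor peptide hormone, so the comparison concerned the knockout under that hormone and no group without it was analysed. The labels gave neither the Cre driver, the strain, the age, the sex nor the way the cells were isolated, and did not tie each library to its own animal. The p-values therefore measured only the spread among these libraries, which may be technical.

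Tie2 is a receptor tyrosine kinase of endothelium. Angpt1, made mainly by perivascular and other non-endothelial cells, activates it and keeps vessels quiescent and tight, whereas Angpt2 is made and stored by endothelial cells and acts as a weak or blocking ligand, depending on context. Tie1 binds neither angiopoietin strongly by itself but pairs with Tie2 and modulates its signal. Ptprb, the vascular endothelial protein tyrosine phosphatase VE-PTP, removes phosphate from Tie2 and is a brake on it. Active Tie2 signals through PI3 kinase and AKT, which keep the transcription factor FOXO1 out of the nucleus, and FOXO1 in turn drives Angpt2.

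The members lie at separate places on the GRCm38 genome (GENCODE M21 annotation). Tek (ENSMUSG00000006386) is on chromosome 4, 94739289 to 94874976, plus strand, and Tie1 (ENSMUSG00000033191) on the same chromosome, 118471191 to 118490061, minus strand. Ptprb (ENSMUSG00000020154) is on chromosome 10, 116275523 to 116389535, plus strand. Angpt1 (ENSMUSG00000022309) is on chromosome 15, 42424723 to 42676977, minus strand, and shares 737 exonic bases with Gm17473, an antisense gene that had 0 to 2 counts per library. Angpt2 (ENSMUSG00000031465) is on chromosome 8, 18690263 to 18741562, minus strand, inside Mcph1 on the opposite strand, with 0 shared exonic bases.

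Promoter windows of 300 bases (250 before and 50 after the start, RefSeq, GRCm38.p6) were matched for 2 of the 5 members, Tek (chr4:94739039-94739338, plus strand) and Tie1 (chr4:118489800-118490099, minus strand). They are shown to place the receptors' start regions beside their transcript levels, and nothing measured here bears on methylation or binding there. Each runs 5′ to 3′ on the gene's strand, with capitals for the ETS core GGAA and the GATA motif AGATAA, each on either strand.
Tek: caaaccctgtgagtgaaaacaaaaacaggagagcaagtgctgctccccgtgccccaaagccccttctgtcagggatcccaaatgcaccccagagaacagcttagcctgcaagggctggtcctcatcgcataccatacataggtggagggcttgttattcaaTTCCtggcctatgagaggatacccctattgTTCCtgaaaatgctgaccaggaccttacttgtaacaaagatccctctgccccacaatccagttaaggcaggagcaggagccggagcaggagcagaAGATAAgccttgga
Tie1: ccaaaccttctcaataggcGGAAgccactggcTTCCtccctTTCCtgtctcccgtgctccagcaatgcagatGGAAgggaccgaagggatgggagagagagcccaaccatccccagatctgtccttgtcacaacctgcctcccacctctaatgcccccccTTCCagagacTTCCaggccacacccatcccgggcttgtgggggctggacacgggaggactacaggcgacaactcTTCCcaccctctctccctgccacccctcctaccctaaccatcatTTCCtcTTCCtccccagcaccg
The Tek window held 3 CpG pairs and the Tie1 window 7, against a median of 7 and quartiles of 3 and 20 over 32851 RefSeq promoter windows of that length. Most of the Tie1 window lies inside the GENCODE span of Tie1, whose 5′ end, at 118490061, is upstream of the RefSeq start. GGAA was found 2 times in Tek and 9 times in Tie1. It occurs in 95.98% of all the windows, with a median of 3, and 98.4% of windows held fewer matches than Tie1. AGATAA was found 1 time in Tek, 0 times in Tie1 and in 11.2% of all windows. The forkhead motif TGTTTAC, searched on both strands, was found 0 times in either and in 3.65% of all windows. No motif overlapped another in these windows, and a match is a string of letters, not a bound site.

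Total counts ranged from 27346804 to 35440257 per library, and 18727 genes were tested. Endothelial transcripts were plain: Cdh5, the endothelial cadherin, averaged 739 TPM (a level scaled by gene length and library size) over the 5 libraries and Pecam1 428 TPM. Transcripts of other cells were high as well. The macrophage and monocyte gene Lyz2 ran from 4728 to 37909 TPM over the libraries, and the epithelial gene Scgb1a1 from 1656 to 7566 TPM. Tet2, counted over the whole gene, was at 30.1 and 35.1 TPM in the TET2KO libraries and 29.2, 27.1 and 26.4 TPM in the WT libraries (log2 fold change 0.02, SE 0.19), and this does not check the genotypes, because the labels do not name the exons removed. The fold changes in the authors' deposited table went against the labels. For all 17994 of its genes with a value above 0 in every library they matched, within 0.01 on the log2 scale, the ratio of the TET2KO libraries together with WT replicate 3 over WT replicates 1 and 2. Only 495 (2.75%) matched the grouping the labels give. The labels are followed here, and each member's change is also given without WT replicate 3.

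The Tie receptors were abundant and higher in the TET2KO libraries than in every WT library. Tek was at 295 and 373 TPM in the TET2KO libraries, against 129.97, 120.3 and 231 TPM in WT replicates 1 to 3. Both TET2KO libraries stood above all WT libraries, and WT replicate 3 lay between them and the other 2 WT libraries. The means were 334 ± 55.4 TPM in TET2KO and 160.5 ± 61.4 TPM in WT (SD, n = 2 and 3). In the count model the log2 fold change of Tek was 0.86 (SE 0.30), a 1.82-fold higher level, which did not pass Benjamini-Hochberg adjustment over all genes in edgeR's quasi-likelihood test (unadjusted p = 0.0291, adjusted p = 0.792).

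Tie1, the partner receptor, was also higher in both TET2KO libraries than in every WT library. It was at 333 and 326 TPM in the TET2KO libraries, against 159, 121 and 223 TPM in the WT libraries. The means were 329 ± 5.17 TPM in TET2KO and 168 ± 51.3 TPM in WT (SD, n = 2 and 3), and the groups did not overlap. Its log2 fold change was 0.78 (SE 0.22, 1.72-fold), with an unadjusted p of 0.0140 and an adjusted p of 0.740 by edgeR.

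Ptprb, the phosphatase that acts on Tie2, was the most abundant member, ranking 440 by mean TPM among the 30203 genes with any count (Tie1 ranked 654 and Tek 663). It was at 427 and 451 TPM in the TET2KO libraries, against 200.2, 169 and 333 TPM in the WT libraries. The groups again did not overlap, and WT replicate 3 was again the highest WT library. The means were 439 ± 17.4 TPM in TET2KO and 234 ± 86.7 TPM in WT (SD, n = 2 and 3). The log2 fold change was 0.72 (SE 0.30, 1.64-fold), which missed the adjusted threshold (edgeR unadjusted p = 0.0560, adjusted p = 0.864).

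The ligands were scarce beside the receptors. Angpt2, the endothelial ligand, was at 9.24 and 10.2 TPM in the TET2KO libraries, against 6.21, 5.43 and 8.87 TPM in the WT libraries. On the TPM scale the groups did not overlap. CPM are counts scaled by library size and edgeR's TMM factors, without gene length. In CPM TET2KO replicate 1, at 9.33, was below WT replicate 3, at 9.63. Scaled by library totals without TMM factors, TET2KO replicate 1 was at 9.89 CPM and WT replicate 3 at 9.77 CPM. The mean was 9.71 ± 0.669 TPM in TET2KO and 6.83 ± 1.80 TPM in WT (SD, n = 2 and 3). The log2 fold change of 0.31 (SE 0.24) did not pass (edgeR adjusted p = 0.864).

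Angpt1, the activating ligand, had 120 and 60 counts in the TET2KO libraries, against 58, 23 and 76 counts in the WT libraries. These counts stand for 3.11 and 1.61 TPM in TET2KO and 1.67, 0.481 and 1.93 TPM in WT, so the groups overlapped. TET2KO replicate 1 was the highest library and WT replicate 2 the lowest, with exact 95% binomial intervals, which cover counting error only, of 3.18 to 4.59 and 0.411 to 0.974 CPM of the library total. The log2 fold change was 0.66 (SE 0.56), not past the threshold (edgeR adjusted p = 0.864). Its size depended on single libraries: the log2 fold change was 0.10 without TET2KO replicate 1 and 0.33 without WT replicate 2, and 1.06 without TET2KO replicate 2 and 1.01 without WT replicate 3. Angpt4, the remaining mouse angiopoietin, had 6 and 5 counts in TET2KO and 16, 4 and 2 counts in WT and was too low to test.

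**Figure D1:**
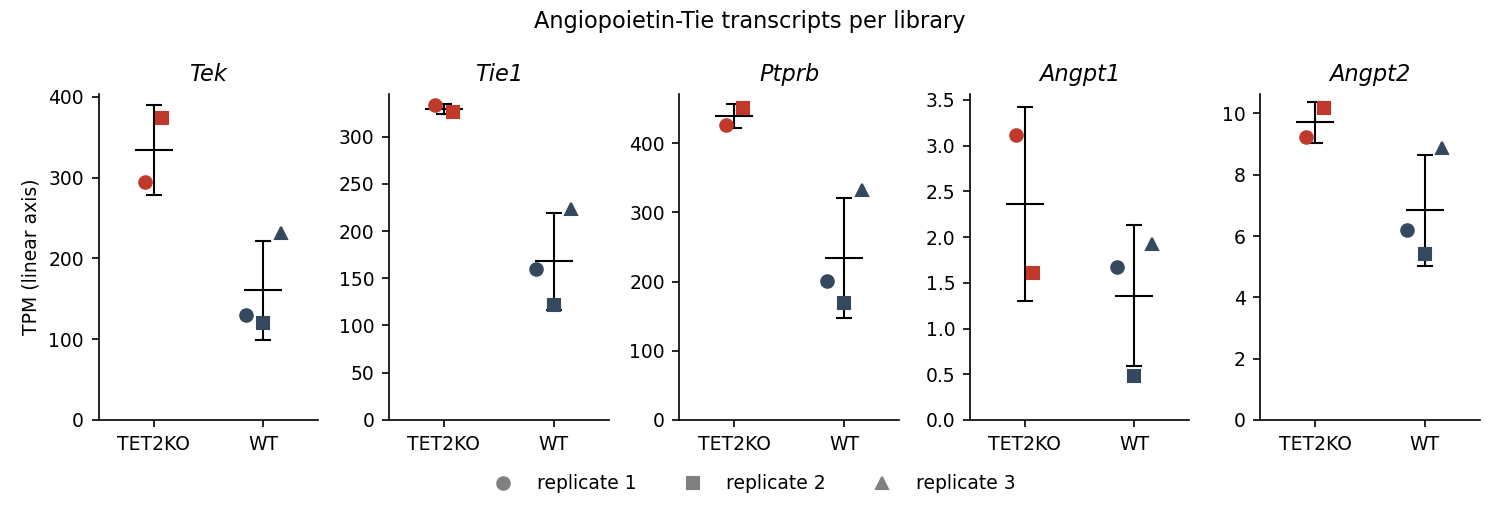
TPM of the 5 members in each library (linear axes from 0; TET2KO in red, n = 2; WT in grey-blue, n = 3; marker shape gives the replicate; horizontal bars and whiskers are the mean ± SD). Tek, Tie1 and Ptprb sit at 295 to 451 TPM in the TET2KO libraries and 120.3 to 333 TPM in the WT libraries, with WT replicate 3 the highest WT library in each panel, while Angpt1 overlaps between the genotypes.

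Read against the background, edgeR called 0 of the 18727 genes at an adjusted p under 0.05 (0%), and 0 of the 5 members. With no adjustment, edgeR gave 1097 genes (5.86%) a p under 0.05, Tek and Tie1 among them, 997 (5.32%) of which were higher and 100 (0.534%) lower in TET2KO. DESeq2 called 60 (0.34%) of the 17634 genes it gave an adjusted p at its adjusted threshold and limma-voom 0, with 0 members in either. In CPM the lowest TET2KO library exceeded the highest WT library for 12.4% of genes, and for 3 of the 5 members, while the reverse held for 12.4% of genes and 0 members. On the TPM scale the shares were 20.8% of genes and 4 of 5 members. All 5 members had a log2 fold change above 0, with a median of 0.72, beside a median of -0.08 and 41.6% above 0 over all genes tested.

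Without WT replicate 3 the log2 fold changes were 1.17 (SE 0.24) for Tek, 1.01 (SE 0.19) for Tie1 and 1.01 (SE 0.26) for Ptprb. They were 1.01 (SE 0.60) for Angpt1 and 0.50 (SE 0.25) for Angpt2, and edgeR's adjusted p was 0.443 for Tek and Tie1, 0.501 for Ptprb, 0.655 for Angpt1 and 0.643 for Angpt2. In the authors' deposited table, which sets WT replicate 3 with the TET2KO libraries, Tek had a log2 fold change of 1.04 with an adjusted p of 0.0253, Tie1 0.86 with 0.0401 and Ptprb 0.91 with 0.0117. That table puts 299 of its 18019 genes (1.66%) under an adjusted p of 0.05, and 201 of them (1.12% of the table) have a fold change above 0. It gave Angpt1 0.93 with an adjusted p of 0.403 and Angpt2 0.48 with 0.310.

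The share of counts from 18 listed pan-endothelial genes, like the receptors, was higher in both TET2KO libraries than in every WT library. The list holds no member and was chosen with earlier results of these data known. It took up 0.727% and 0.742% of counts in the TET2KO libraries, against 0.416%, 0.255% and 0.518% in the WT libraries. All 18 were higher in both TET2KO libraries than in every WT library, as were 12.4% of all genes tested in CPM. The log2 fold changes of the 18 ran from 0.57 to 1.03 with a median of 0.75, and 0 of 18 passed the adjusted threshold. The number of endothelial cells in an isolate, their RNA content and changed expression of these genes cannot be told apart in bulk RNA. None of these was tested.

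Set against that list, the differences of the receptors and the phosphatase between genotypes were smaller than the spread among libraries. The quantity was the log2(TPM + 1) of a member minus the mean of the 18 genes in the same library. For Tek it was 0.47 and 0.77 in the TET2KO libraries and 0.11, 0.76 and 0.66 in the WT libraries, a difference of 0.10 (exact permutation test, two-sided, p = 0.8). WT replicate 1 was the low library, and the other WT libraries lay within the TET2KO range. For Tie1 the difference was 0.01 (exact permutation p = 1) and for Ptprb -0.04 (exact permutation p = 1), and with 2 and 3 libraries the smallest p this test allows is 0.1. Scaling the counts so that the 18 genes were level gave edgeR log2 fold changes of 0.08 (SE 0.31) for Tek, -0.0063 (SE 0.27) for Tie1 and -0.065 (SE 0.30) for Ptprb. That scaling moved the median of all genes to -0.89, so relative to the median gene the same members stood at 0.97, 0.88 and 0.82.

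Relative to the same list Angpt2 was lower in TET2KO, as was the median gene, and its difference did not pass in edgeR. The log2(TPM + 1) of Angpt2 lay at -4.38 and -4.30 relative to the 18 genes in the TET2KO libraries, against -4.07, -3.47 and -3.90 in the WT libraries. Both TET2KO values were below all WT values, by 0.53 on average (exact permutation test, two-sided, p = 0.2). That test cannot give a p below 0.1 here. The share of all genes that separate in this way relative to the list was not counted. For Angpt2 edgeR on the endothelial scaling gave -0.50 (SE 0.32, adjusted p = 0.244). The median of all genes on that scaling was lower, at -0.89, so Angpt2 stood at 0.39 relative to the median gene. Angpt1 lay at -5.70 and -6.40 in TET2KO and -5.50, -5.59 and -5.65 in WT, a difference of -0.47 (exact permutation p = 0.1, the smallest possible) that came to -0.14 with a pseudocount of 0.1 (exact permutation p = 0.8), and edgeR on the endothelial scaling gave -0.057 (SE 0.48).

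**Figure D2:**
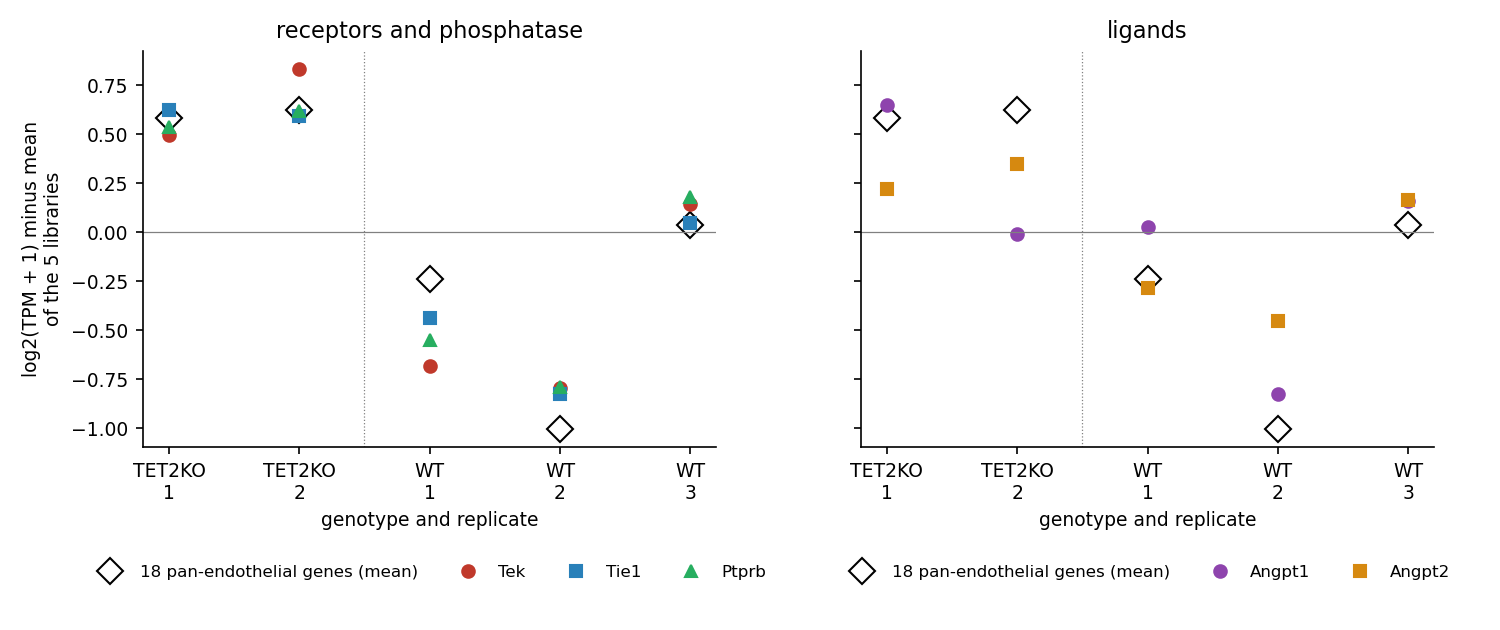
Log2(TPM + 1) of each member minus its mean over the 5 libraries, for the receptors with the phosphatase (left) and the ligands (right), by genotype and replicate; open diamonds are the mean of 18 pan-endothelial genes treated in the same way. Tek, Tie1 and Ptprb lie below the diamonds in WT replicate 1 and above them in WT replicate 2, and run from 0.50 to 0.83 in TET2KO and down to -0.83 in WT replicate 2, while Angpt2 spans a narrower range, from -0.45 to 0.35.

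**Figure D3:**
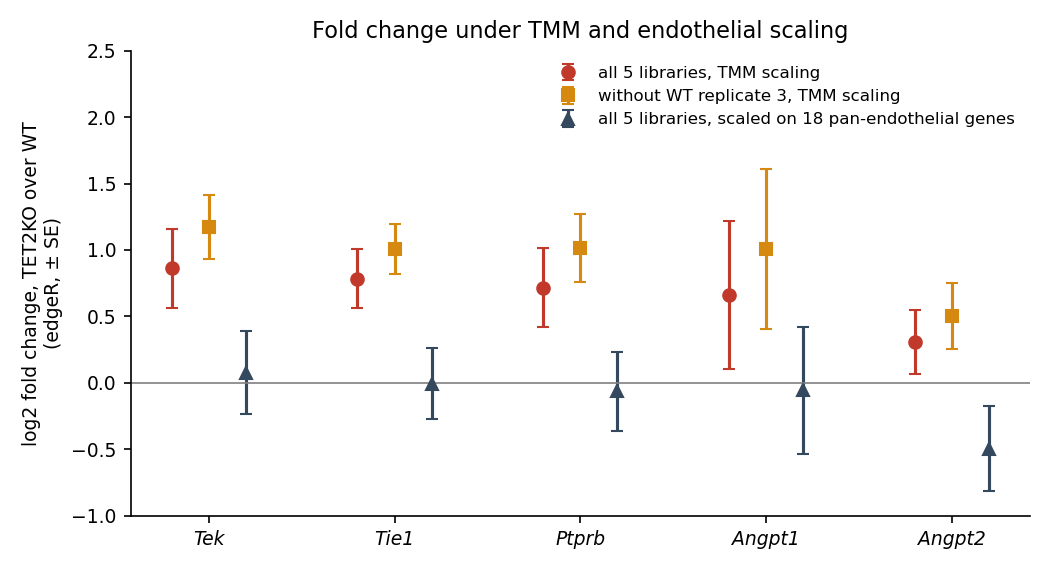
edgeR log2 fold change, TET2KO over WT, with SE, for each member under TMM scaling with all libraries (red circles), TMM scaling without WT replicate 3 (orange squares) and scaling on 18 pan-endothelial genes (dark triangles). Under endothelial scaling Tek, Tie1, Ptprb and Angpt1 lie within 1 SE of 0 and Angpt2 is at -0.50, while all 5 are above 0 under TMM scaling.

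The ratios within the system overlapped between the genotypes. On the TPM scale, which allows levels of different genes to be compared, Tie1 over Tek was 1.13 and 0.873 in the TET2KO libraries and 1.23, 1.01 and 0.964 in the WT libraries, so the receptors were near parity in each. Ptprb over Tek was 1.45 and 1.21 in TET2KO and 1.54, 1.41 and 1.44 in WT. Angpt2 exceeded Angpt1 in every library, by 2.97 and 6.32 times in TET2KO and 3.72, 11.3 and 4.60 times in WT. As differences of log2(TPM + 1), TET2KO minus WT, the Tie1 to Tek ratio differed by -0.09 (exact permutation p = 0.7), the Ptprb to Tek ratio by -0.14 (p = 0.4, same exact test) and the Angpt2 to Angpt1 ratio by -0.06 (exact permutation p = 0.7). The pseudocount of 1 shrinks the last of these, since Angpt1 is scarce: it was -0.35 with a pseudocount of 0.1 and -0.39 on log2 CPM (exact permutation p = 0.7 for each). Over the 8 exact tests run on ratios and on members relative to the endothelial list, the lowest Benjamini-Hochberg adjusted p was 0.8. The smallest unadjusted p that this test allows is 0.1, so it could not have passed 0.05 for a shift of any size.

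Angpt1 can come from cells other than endothelium, so their markers were read beside it. The 14 pericyte and smooth muscle genes took up 0.00364% and 0.00343% of counts in TET2KO, against 0.00260%, 0.00294% and 0.00223% in WT, and 11 of 12 tested genes were above 0 with 0 past the adjusted threshold. Cspg4, at 120 and 87 counts in TET2KO and 84, 526 and 42 counts in WT, was the one below 0 (log2 fold change -1.21, SE 1.09). The log2 fold change was 0.77 (SE 0.33) for Pdgfrb, a receptor of pericytes, smooth muscle and fibroblasts, and 0.02 (SE 0.47) for Kcnj8, a potassium channel of pericytes. Cnn1 and Higd1b were too low to test. The 7 platelet and megakaryocyte genes took up 0.00511% and 0.00320% of counts in TET2KO and 0.00660%, 0.000911% and 0.00215% in WT. TET2KO replicate 1 was above TET2KO replicate 2 and WT replicate 2 was the lowest in the platelet share, an order that Angpt1 had as well, but WT replicate 1 held the highest platelet share and not the highest Angpt1. Macrophage and monocyte genes took up 0.523% and 0.975% of counts in TET2KO and 1.03%, 3.18% and 0.344% in WT. Their share was highest in WT replicate 2, where Tek, Tie1, Ptprb and both ligands had their lowest TPM. In CPM with TMM factors only Angpt1 was lowest there, while Tek, Tie1, Ptprb and Angpt2 were lowest in WT replicate 1. The median log2 fold change of the 10 macrophage and monocyte genes was -0.97, with 2 above 0, and 0.12 without WT replicate 2. C1qa, at 0.96 (SE 0.33), was above 0. All 5 mesothelial genes were higher in both TET2KO libraries than in every WT library (median log2 fold change 1.68), as were 12.4% of all genes in CPM. The mesothelial genes took up 0.00286% and 0.00420% of counts in TET2KO and 0.00136%, 0.000714% and 0.000880% in WT. Their counts were low, with Wt1 at 9 to 60 per library. The median log2 fold change was 0.82 for 8 epithelial genes, 0.69 for 9 fibroblast genes and -0.23 for 7 lymphocyte genes, with 0 past the adjusted threshold in each. The epithelial median was 0.43 without TET2KO replicate 2, and the fibroblast median 0.44 without WT replicate 3 and 1.08 without WT replicate 1. The lymphocyte median had no fixed sign, at 0.17 without WT replicate 3, 0.08 without TET2KO replicate 2 and 0.17 on log2(TPM + 1). The part of these cells in the members' values was not tested.

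The genes most like each member over the 5 libraries were found by the root mean square difference of centred log2 CPM among genes with a mean of at least 3. For Tek these were Shroom4 (0.05), Cyyr1 (0.08) and Stox2 (0.09), among 10150 genes compared, with Ptprb at rank 20 and Tie1 at rank 77. For Tie1 they were Adcy6 (0.03), an adenylyl cyclase, Npr1 (0.04), the receptor of atrial natriuretic peptide, and Dock6 (0.05). For Ptprb they were Scube1 (0.03), Ddah2 (0.04), an enzyme that degrades methylated arginine inhibitors of nitric oxide synthase, and Adgrl4 (0.06), an endothelial adhesion receptor, with Tie1 at rank 22 and Tek at rank 45. Angpt2 was nearest to Sertad1 (0.05), Meis2 (0.06) and Gbp2 (0.06), and Ptprb was its nearest fellow member, at rank 953. Angpt1 was nearest to Rapgef5 (0.08), Ctla2b (0.10) and Sema7a (0.12), with Tie1 as its nearest fellow member at rank 1450. With so many genes and 5 libraries, close matches arise readily, and these are descriptions.

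In the list of other ligands and partners of the receptor complex, 6 of 9 tested genes were above 0 and 0 passed the adjusted threshold (median log2 fold change 0.24). That median was 0.13 when TET2KO replicate 2 was left out, and leaving out WT replicate 1, 2 or 3 in turn gave 0.08, 0.41 or 0.39. Mmp14, a membrane protease that can shed Tie2, was at 15.5 and 18.6 TPM in TET2KO, against 10.6, 6.54 and 10.3 TPM in WT, a log2 fold change of 0.71 (SE 0.20, edgeR adjusted p = 0.740). Ecscr, an endothelial surface protein, was at 141 and 143 TPM in TET2KO and 88.1, 37.1 and 92.1 TPM in WT, with a log2 fold change of 0.81 (SE 0.30). Cdh5, a substrate of Ptprb at junctions, was at 1091 and 1010 TPM in TET2KO, against 523, 303 and 769.7 TPM in WT. Cdh5 and Ecscr are also in the pan-endothelial list.

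In the signal relay below Tie2, 19 of 25 tested genes were below 0, beside 58.4% of all genes, and 0 passed the adjusted threshold. The median was -0.17, beside -0.08 for all genes, and -0.07 without WT replicate 2. With library totals as the scaling it was -0.0055, beside 0.06 for all genes, and on log2(TPM + 1) it was 0.08, beside 0.13. Grb2, an adaptor of receptor kinases, was at 255 and 247 TPM in TET2KO, against 289, 254 and 277 TPM in WT (log2 fold change -0.34, SE 0.17), and Sos1, the exchange factor it recruits, had -0.22 (SE 0.14). Grb14, an adaptor that binds Tie2, was at 6.71 and 8.08 TPM in TET2KO and 5.85, 2.11 and 4.45 TPM in WT, with a log2 fold change of 0.68 (SE 0.34). Foxo1, named after its value was seen because it closes the loop to Angpt2, had -0.17 (SE 0.50). In the list of FOXO targets 8 of 18 were above 0 and 0 passed, with a median of -0.06 that was 0.23 on log2(TPM + 1). Of these, Esm1, a proteoglycan of endothelial tip cells, was at 27.3 and 28.2 TPM in TET2KO, against 14.6, 12.9 and 22.3 TPM in WT (log2 fold change 0.54, SE 0.25). Eng, the co-receptor endoglin and also a pan-endothelial gene, had 0.79 (SE 0.27), and Gadd45a, a stress-response gene, -0.34 (SE 0.18).

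Among 18 transcription factors placed upstream of the system, 10 were above 0 and 0 passed the adjusted threshold, with a median of 0.22 (0.03 without TET2KO replicate 2 and 0.39 without TET2KO replicate 1). Erg, an ETS factor of endothelium that is also in the pan-endothelial list (as is Tal1), was at 60.7 and 81.5 TPM in TET2KO, against 31.2, 27.8 and 41.9 TPM in WT (log2 fold change 0.88, SE 0.22). Gata2, a GATA factor of endothelium, was at 161 and 136 TPM in TET2KO, against 91.6, 45.9 and 88.7 TPM in WT (0.81, SE 0.23). Elk3, another ETS factor, was at 108 and 122 TPM in TET2KO and 74.5, 60.2 and 75.5 TPM in WT (0.51, SE 0.15). The edgeR adjusted p of each was 0.740. The other ETS factors of the list lay below 0, each within 1 SE of it. They were Ets1 (-0.15), Elf1 (-0.14), Etv6 (-0.14), Fli1 (-0.10) and Ets2 (-0.04).

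Among other phosphatases of the R3 class and of endothelium, 3 of 7 tested genes were above 0 and 0 passed, with a median of -0.13 that was 0.11 on log2(TPM + 1) and 0.19 without WT replicate 2. Ptprm and Ptprg, receptor-type phosphatases, had log2 fold changes of 0.81 (SE 0.35) and 0.77 (SE 0.25), while Ptpn1, a phosphatase of the endoplasmic reticulum, had -0.26 (SE 0.17). Of the angiopoietin-like genes, secreted relatives that do not bind Tie2, 4 of 7 were above 0 and 0 passed (median 0.07, -0.07 without TET2KO replicate 1 and 0.33 without WT replicate 2). Angptl8, which acts on lipoprotein lipase, was at 7.14 and 5.94 TPM in TET2KO, against 2.55, 1.65 and 4.37 TPM in WT (log2 fold change 1.02, SE 0.42). Angptl4, an inhibitor of that lipase, was at 32.3 and 119 TPM in TET2KO and 50.3, 215 and 24.8 TPM in WT, so its libraries spread widely in both genotypes, and Angptl2 had 0.43 (SE 0.30).

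**Figure D4:**
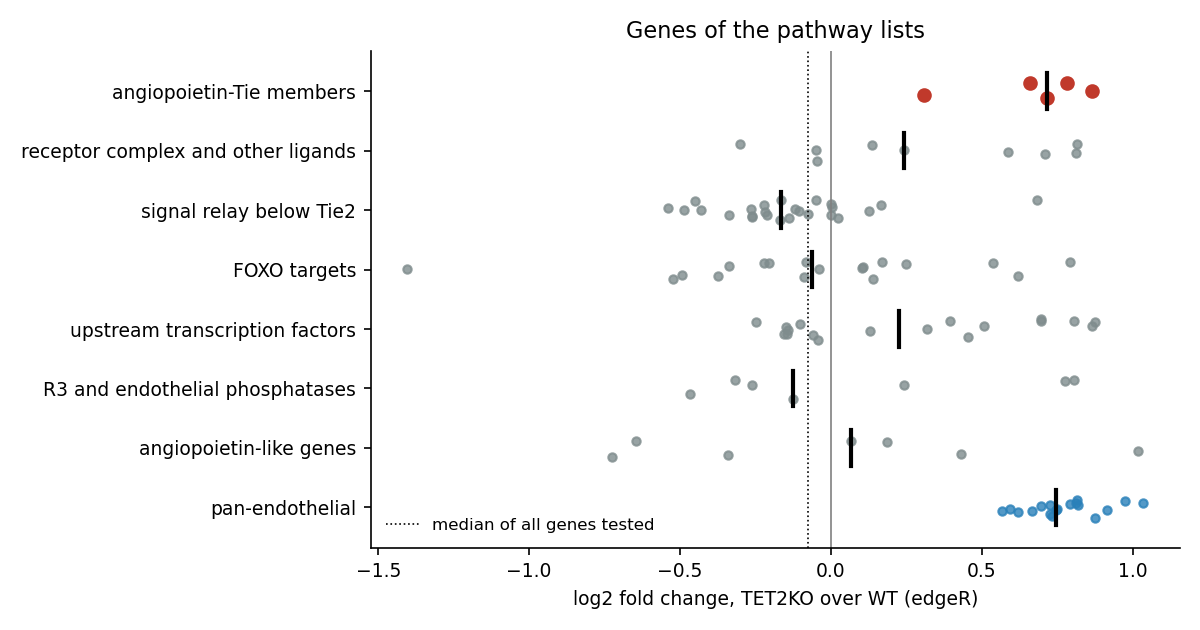
edgeR log2 fold change, TET2KO over WT, of each tested gene (points, with vertical scatter for legibility) in the 5 members (red), the 6 pathway lists (grey) and the 18 pan-endothelial genes (blue); black bars are medians and the dotted line is the median of all genes tested, -0.08. The member median of 0.72 lies close to the pan-endothelial median of 0.75, and the medians of the pathway lists lie between -0.17 and 0.24.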

How the data were processed

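Lung endothelial isolates of 2 TET2KO and 3 WT samples were profiled by poly(A) RNA-seq. The submitters' processing notes name Trimmomatic 0.36, STAR 2.5.2b, featureCounts (Subread 1.5.2), DESeq2 and build GRCm38. The strand setting of counting is not given in the sources used here. Overlapping antisense genes therefore cannot be separated. The authors deposited whole-number counts per gene, TPM values made from them, and a table with log2 fold changes, p-values and counts divided by a size factor (a normalized signal). No aligned reads were used.

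The test was edgeR 4.0.16's quasi-likelihood F test on genotype alone (TMM, filterByExpr) in R 4.3.3, with Benjamini-Hochberg adjustment over 18727 genes and a threshold of 0.05. The SE is the log2 fold change over the square root of F. The biological coefficient of variation was 0.339. DESeq2 1.42.0, limma 3.58.1 (voom, and log2(TPM + 1) or log2(TPM + 0.1)), other scalings and filters (none, or 1 CPM or more in 2 libraries), leaving out each library and the replicate number as a block were alternatives. The fits were tested on simulated data. Log2 CPM used a prior count of 2. Of 49315 gene IDs, 48970 matched GENCODE M21.

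The members and lists were chosen with earlier results of these data known. Named genes are the 5 members, Tet2, any list gene past the threshold with the 3 of smallest p per pathway list, and the 3 genes most like each member; others, marker genes included, were named after their values were seen.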

Additional observations from a re-analysis of the deposited data

How the results depend on the processing

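DESeq2 called 60 genes in place of 0, and the number of members called was 0 in every alternative run. Scaling on the pan-endothelial genes turned the log2 fold change of Tie1 (-0.0063), Ptprb (-0.065), Angpt1 (-0.057) and Angpt2 (-0.50), because it levels those genes by construction, and left Tek at 0.08. Under the remaining count and TPM alternatives all 5 members stayed above 0. With 1 library left out, where a lone TET2KO library is assumed to vary like the WT libraries, Tek ran from 0.68 to 1.17, Tie1 from 0.69 to 1.01, Ptprb from 0.57 to 1.01, Angpt1 from 0.10 to 1.06 and Angpt2 from 0.19 to 0.50. Over all alternatives the lowest adjusted p was 0.130 for Tek and Tie1, 0.158 for Ptprb and 0.266 for Angpt1, all from edgeR with the replicate block. For Angpt2 it was 0.244, from edgeR on the endothelial scaling. The small differences relative to the endothelial list changed sign when 1 library was left out: Tek ran from -0.095 to 0.25, Tie1 from -0.086 to 0.10 and Ptprb from -0.20 to 0.062. So did the Tie1 to Tek ratio, from -0.28 to 0.090, and the Angpt2 to Angpt1 ratio, from -0.45 to 0.33, and the cause was not tested. The Ptprb to Tek ratio ran from -0.27 to -0.013. Angpt2 relative to the endothelial list ran from -0.66 to -0.36 and Angpt1 from -0.82 to -0.12. The labels number replicates 1 and 2 in both genotypes without saying that a number marks a shared animal or day. Deviations from the group means of same-numbered libraries correlated across genes at 0.22 and 0.49, but TET2KO replicate 1 correlated with WT replicate 3 at 0.45. With 2 TET2KO libraries, the deviations of replicate 2 are those of replicate 1 with the sign turned, so these correlations are not independent. The number is not shown to pair libraries. A replicate block in edgeR called 0 genes and gave 1.14 for Tek, 0.98 for Tie1, 0.99 for Ptprb, 1.02 for Angpt1 and 0.47 for Angpt2. WT replicate 3 stands alone in its block and adds nothing to the genotype difference. The block is thus close to the run without WT replicate 3 and is not a separate check. With the same replicate block the Ptprb difference relative to the endothelial list was 0.026, the same as without WT replicate 3. The uncalled medians of the FOXO, phosphatase and angiopoietin-like lists changed sign with 1 library left out, running from -0.13 to 0.20, from -0.05 to 0.19 and from -0.07 to 0.33. Depth limits Angpt1 (23 to 120 counts) more than the other members.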
